A study of Mus musculus with 4 samples.

Results

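Wnt ligands, their receptors and inhibitors were followed by RNA sequencing in cultured hippocampal neurons, prepared from the brains of newborn C57BL/6NCrl mice and used on day 12 in vitro. The members are the 41 genes, of 23453 in the deposited table, whose name is that of a Wnt ligand, a Frizzled receptor (Fzd), the co-receptors Lrp5 and Lrp6, a Dkk or Sfrp inhibitor, an Axin, Lef1 or Tcf7. They comprise 18 ligands, 12 receptors, 7 secreted inhibitors and 4 intracellular genes. In the AP bursting group, 50 µM bicuculline was applied for 4 h. Bicuculline blocks GABA-A receptors, so that the network is released from inhibition and fires action potentials in bursts. Control cultures were given vehicle (DMSO) and stayed at basal activity for 4 h. Each group had 2 libraries, and the design text speaks of 2 experiments on separate preparations of cells. Strain, brain region and culture medium, which contained rat serum at first, are common to all 4.

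Wnt proteins are secreted, lipid-modified signals. They bind a Frizzled receptor together with Lrp5 or Lrp6, which stops the Axin complex from marking beta-catenin for destruction, so that beta-catenin reaches Lef1 and the Tcf factors on DNA. Dkk proteins act on Lrp5 and Lrp6, whereas Sfrp proteins bind the ligands. In the hippocampus the pathway is known for roles in the growth of progenitors, dendrites and synapses, and Wnt release has been tied to neuronal activity.

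The deposited table gives 1 mean per group. From each mean the reads of its 2 libraries were recovered, and the libraries are called deep and shallow after their number of reads. Genes resolved in this way held 13179309 to 25520205 reads per library. Values are given below for the deep library first and the shallow one second. Deep was paired with deep and shallow with shallow, because the deep minus shallow difference within AP bursting and that within controls had a correlation of 0.878 across 13648 genes averaging at least 50 normalized reads. The labels do not give this pairing, which was inferred. The stimulus was visible in every library, since the activity-induced gene Arc stood at 14321 and 13355 normalized reads after AP bursting, against 286 and 222 in controls. Of the neuronal markers, Rbfox3 stood at 2696 and 3619 normalized reads after AP bursting and 2639 and 3056 in controls. Of the other 5 neuronal markers, Syt1 was too abundant to be resolved in controls and the rest in both groups. In the authors' deposited table Map2 (listed as Mtap2), Snap25, Syt1 and Slc17a7 had folds of 1.13 to 1.22 and Tubb3 had a fold of 0.766 (means 15992 after AP bursting and 20881 in controls), each with an adjusted p of 1. The cultures also held glial RNA, with 3423 and 7962 normalized reads of the astrocyte gene Gfap after AP bursting and 3001 and 6178 in controls. In bulk RNA, fewer cells of a type and less RNA per cell cannot be told apart.

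Across the family, 1 secreted inhibitor stood out in the authors' test. A paired test called it as well, along with a mixed set of ligands and receptors and the intracellular gene Lef1. Dkk2 was the 1 member of 41 called higher in the authors' deposited table, and 0 were called lower. The background there was 143 of 23453 genes higher (0.610%) and 0 lower (0.00%), and the other 40 members had an adjusted p of 1. limma without the pairs, on log2(normalized reads + 1), called 0 of 39 members tested in either direction. The background of that fit was 2 of 20226 genes higher (0.00989%) and 0 lower (0.00%). In the same fit 3 of 39 members, Dkk2, Wnt9a and Wnt6, had an unadjusted p below 0.05, beside 668 of 20226 genes. limma with the pairs as a replicate block called 5 members higher (Dkk2, Lef1, Fzd5, Fzd4 and Fzd1) and 5 lower (Wnt6, Wnt9a, Fzd7, Wnt7a and Wnt4). That is 12.8% of the 39 in each direction, beside 6.87% of all genes higher and 6.10% lower. Below, rose and fell are used only for calls of this block fit at an adjusted p under 0.05, with two-sided Benjamini-Hochberg adjustment over all genes. With 1 residual degree of freedom, the block fit takes each gene's error from a trend across genes, so a call can stand although the 2 pairs differ in size. The SE and p of this fit thus do not measure the gap between the 2 pairs of the gene itself. Without that trend it called 0 of 39 members and 0 of 20226 genes, with 3268 genes and 11 members at an unadjusted p below 0.05.

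**Figure D1:**
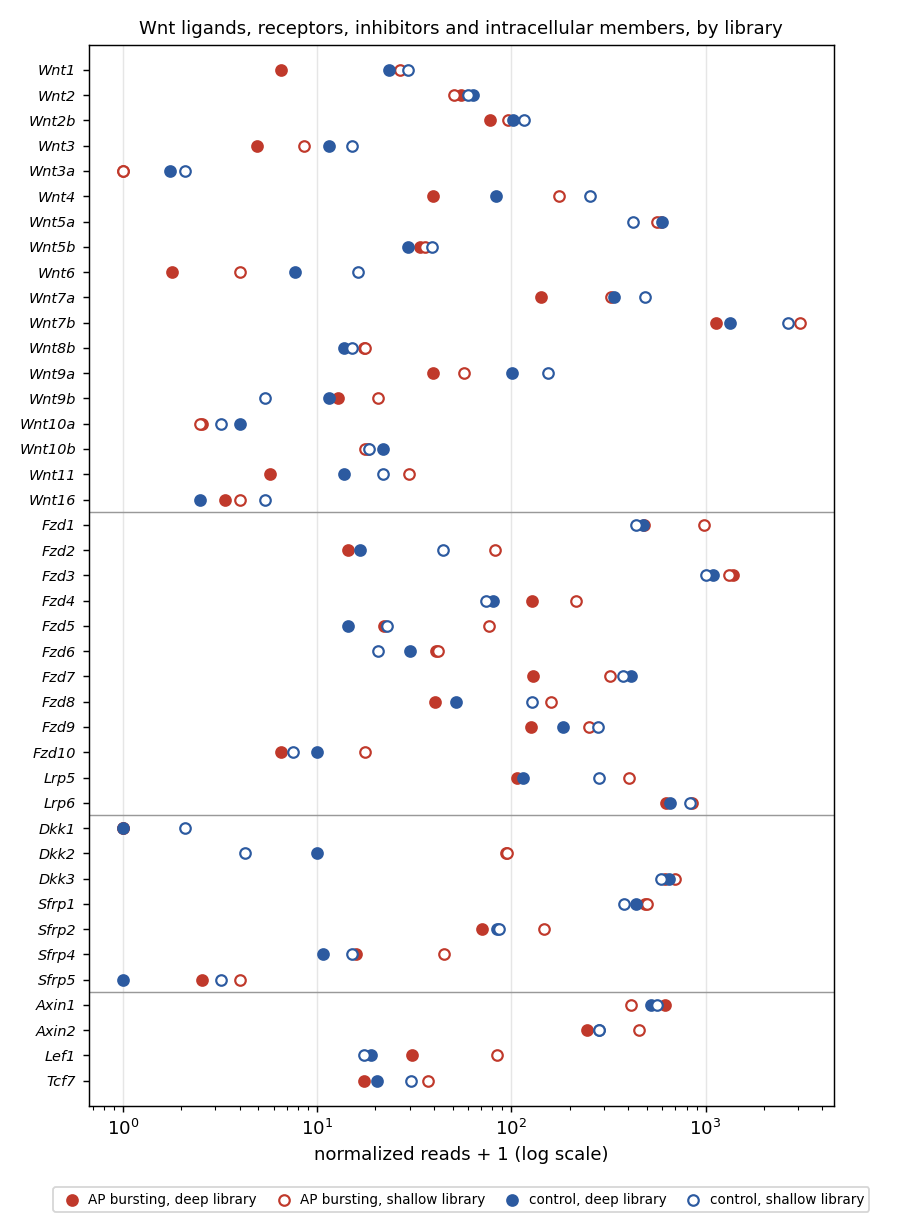
Normalized reads plus 1 (log axis) of each of the 41 members in the 4 libraries, ordered as ligands, receptors, secreted inhibitors and intracellular genes; red marks AP bursting, blue control, filled the deep and open the shallow library. Dkk2 is the row in which both red points lie farthest to the right of both blue ones.

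A count without any model covered partly other members. The called Wnt4 and Fzd5 overlapped between the groups, whereas uncalled members such as Wnt2, Wnt10b and Fzd3 did not. Another such count, of exact intervals and given further below, put the members under the background (7.69% above and 10.3% below, beside 13.1% and 12.9%). The 2 AP bursting libraries lay above both controls for 10 of 39 members (25.6%), beside 12.6% of all genes, and below both for 9 of 39 (23.1%), beside 11.7%. The ligands had 2 of 17 above and 8 below, the receptors 4 of 12 above and 1 below, and the inhibitors 3 of 6 above and 0 below. The median log2 fold was -0.33 over the ligands tested, 0.32 over the receptors, 0.56 over the inhibitors and 0.14 over the intracellular genes, beside -0.02 over all genes. Within the deep pair the median was -0.40 over ligands, -0.09 over receptors, 0.37 over inhibitors and 0.02 over intracellular genes. Within the shallow pair the medians were -0.24, 0.70, 0.58 and 0.49 in that order. The receptor median thus differed in sign between the pairs.

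Dkk2 (ENSMUSG00000028031, chromosome 3), a secreted protein that binds Lrp5 and Lrp6 and can block or weakly activate the pathway depending on context, changed most. It was counted at 118 and 62 reads after AP bursting, against 12 and 3 in controls. After normalization these were 92.9 and 93.8 with AP bursting and 8.99 and 3.28 in controls. Both stimulated libraries were far above both controls and nearly equal to each other. In the authors' deposited table Dkk2 had a mean of 93.4 after AP bursting and 6.14 in controls, a fold of 15.2 (adjusted p = 0.0017), which ranked 39 among their 143 called genes. In limma with the replicate block its log2 fold was 3.85 ± 0.39 (SE; adjusted p = 3.11e-20), and without the block the adjusted p was 0.388. Within pairs the ratio of normalized reads, called the ratio of reads here and below, was 10.3 in the deep pair (exact 95% interval 5.7 to 20.6). In the shallow pair it was 28.6 (9.34 to 142), and these intervals cover counting error only. Per kilobase of exon, Dkk2 stood at 25.1 and 25.3 normalized reads after AP bursting and 2.43 and 0.886 in controls. Dkk3, a relative that does not act as a classic Wnt blocker, remained far more abundant per kilobase, at 183 and 206 after AP bursting and 194 and 175 in controls. Dkk2 thus made up 12.1% and 11.0% of the summed Dkk level per kilobase in AP bursting libraries, against 1.24% and 0.504% in controls. Dkk1, the best known Wnt blocker of the family, had 0 reads in both AP bursting libraries and in the deep control and 1 read in the shallow control, so no fold is given.

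The promoter windows of the 6 members with the largest log2 fold in either direction among those that passed with the block, averaged at least 10 and had a window are shown because they let a reader look for the sites of activity-regulated factors next to the genes that moved. Each run holds the 250 bases before a RefSeq transcription start on build GRCm38.p6, on the strand of the gene (minus for Fzd5 and plus for the others), with matches to the searched motifs in capitals. Dkk2 lies at chr3:132085042-132085291, Lef1 at chr3:131110047-131110296 (the most upstream of 4 listed starts), Wnt9a at chr11:59306680-59306929, Fzd5 at chr1:64737751-64738000, Fzd4 at chr7:89404116-89404365 and Fzd7 at chr1:59481897-59482146.
Dkk2: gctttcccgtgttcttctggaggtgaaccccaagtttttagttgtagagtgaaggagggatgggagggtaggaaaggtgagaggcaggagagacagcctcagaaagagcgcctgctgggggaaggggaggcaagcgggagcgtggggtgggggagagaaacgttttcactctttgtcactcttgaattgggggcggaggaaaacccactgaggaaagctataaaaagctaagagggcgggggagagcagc
Lef1: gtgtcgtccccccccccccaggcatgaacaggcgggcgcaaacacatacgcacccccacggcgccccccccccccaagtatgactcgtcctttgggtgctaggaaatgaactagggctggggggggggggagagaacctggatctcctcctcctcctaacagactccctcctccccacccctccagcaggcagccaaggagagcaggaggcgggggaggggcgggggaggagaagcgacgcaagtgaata
Wnt9a: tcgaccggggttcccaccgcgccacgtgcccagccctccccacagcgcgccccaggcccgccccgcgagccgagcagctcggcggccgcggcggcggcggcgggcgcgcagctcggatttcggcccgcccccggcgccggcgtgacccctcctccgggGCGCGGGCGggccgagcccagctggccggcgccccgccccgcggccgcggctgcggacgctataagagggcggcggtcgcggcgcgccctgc
Fzd5: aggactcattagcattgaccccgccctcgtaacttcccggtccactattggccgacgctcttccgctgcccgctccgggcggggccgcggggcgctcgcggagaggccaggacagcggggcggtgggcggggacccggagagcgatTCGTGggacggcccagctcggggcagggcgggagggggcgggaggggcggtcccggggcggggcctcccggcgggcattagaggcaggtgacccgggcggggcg
Fzd4: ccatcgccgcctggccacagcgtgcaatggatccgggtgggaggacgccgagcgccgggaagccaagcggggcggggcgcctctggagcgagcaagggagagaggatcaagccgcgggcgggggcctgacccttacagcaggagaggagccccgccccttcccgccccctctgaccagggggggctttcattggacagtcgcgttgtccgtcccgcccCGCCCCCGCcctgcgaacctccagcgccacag
Fzd7: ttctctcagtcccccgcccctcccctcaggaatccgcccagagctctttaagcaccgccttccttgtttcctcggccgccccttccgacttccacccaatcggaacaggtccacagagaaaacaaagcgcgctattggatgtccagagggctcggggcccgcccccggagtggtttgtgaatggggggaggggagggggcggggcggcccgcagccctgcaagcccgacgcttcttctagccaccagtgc
The motifs were searched on both strands in the windows of the 28 members with an entry. A member was counted if any of its windows held a match, whereas the shares of all windows count each window by itself. Members with several starts thus had more chances, and the 2 shares are not strictly alike. The full cAMP response element TGACGTCA, bound by CREB, was in 0 of 28, beside 1.55% of 32851 windows of all genes. Its core TGACG, which the full element contains, was in 3 of 28 (17.8% of all windows), namely Sfrp5, Wnt10b and Wnt11. The AP-1 motif TGANTCA was in Wnt5b alone of the 28 (6.75% of all windows), and the beta-catenin partner motif CTTTGAT or CTTTGAA in 3 of 28 (7.48%), namely Dkk1, Wnt11 and Wnt5b. The motif GCGNGGGCG, bound by the activity-induced Egr factors, was in 9 of 28 (4.70% of all windows), namely Fzd4, Wnt9a, Wnt7a and Wnt6, which passed with the block, and Fzd10, Tcf7, Wnt2, Wnt2b and Wnt3a, which did not pass or were not tested. The TCGTG motif, a core that the activity-induced factor Npas4 can bind, was in 4 of 28 (13.3%), namely Fzd5, Wnt10b, Wnt11 and Wnt16. The windows shown differ in base composition, with 55.6% G and C for Dkk2, 66.4% for Lef1, 84.4% for Wnt9a, 76.4% for Fzd5, 72.8% for Fzd4 and 65.2% for Fzd7, and the shares were not matched for it. These are matches of letters in a window, and none is known from these files to be bound.

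Among the 18 ligands 4 fell and 0 rose with the block, and the most abundant ones were Wnt7b, Wnt7a and Wnt5a. Wnt7b, a ligand that promotes dendrite growth in hippocampal neurons, stood at 231 and 624 normalized reads per kilobase after AP bursting, against 272 and 545 in the controls. It made up 52.0% and 65.6% of the summed ligand level per kilobase after AP bursting, and 45.4% and 56.3% in controls. The level of Wnt7b separated the shallow from the deep libraries and not the treatments. Its log2 fold was -0.02 ± 0.18 (SE, limma with the replicate block, adjusted p = 0.968), with -0.24 in the deep pair and 0.20 in the shallow one.

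Wnt7a (ENSMUSG00000030093, chromosome 6), known for organizing presynaptic terminals and spines, fell. It stood at 141 and 324 normalized reads after AP bursting, against 336 and 486 in the controls. The higher stimulated library lay just below the lower control, and each fell short of its own paired control by more than that. The log2 fold was -0.92 ± 0.23 (SE, limma with the replicate block, adjusted p = 0.00107), and the ratio of reads was 0.419 in the deep pair (exact 95% interval 0.35 to 0.499) and 0.667 in the shallow pair (0.564 to 0.787). Its share of the summed ligand level per kilobase was 9.98% and 10.7% after AP bursting and 17.7% and 15.8% in controls.

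Wnt9a (ENSMUSG00000000126, chromosome 11), a ligand studied mostly in joint and limb development, showed a fall that was nearly equal in both pairs. It stood at 38.6 and 56.0 normalized reads after AP bursting and 99.7 and 153 in controls. Both stimulated libraries were well below both controls. limma with the replicate block gave a log2 fold of -1.39 ± 0.30 (SE, adjusted p = 7.95e-05), with -1.35 in the deep pair and -1.43 in the shallow one. In the authors' deposited table its fold was 0.374 with an adjusted p of 1.

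Wnt4 (ENSMUSG00000036856, chromosome 4), a ligand of kidney and gonad development also found in the brain, fell within each pair although the groups overlapped. It stood at 38.6 and 176 normalized reads after AP bursting and 82.4 and 254 in controls. Both deep libraries were low and both shallow ones high, and the shallow AP bursting library exceeded the deep control. Its log2 fold came to -0.80 ± 0.28 (SE, limma with the replicate block, adjusted p = 0.031), and the exact 95% interval of the ratio of reads excluded 1 in both pairs (0.327 to 0.661 in the deep pair and 0.549 to 0.868 in the shallow one). Without the block, its log2 fold was 0.28 when the deep AP bursting library was left out and 0.0028 when the shallow control was.

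Wnt6 (ENSMUSG00000033227, chromosome 1) fell at a low level. It was counted at 1 and 2 reads after AP bursting, against 9 and 14 in the controls. This amounted to a log2 fold of -2.07 ± 0.62 (SE, limma with the replicate block, adjusted p = 0.00937). The ratio of reads had exact 95% intervals of 0.00266 to 0.842 in the deep pair and 0.0218 to 0.861 in the shallow one, so its size is poorly set. The gene was not tested where a mean of at least 10 was required.

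No other ligand passed. Wnt5a, a ligand that mostly signals without beta-catenin, stood at 587 and 562 normalized reads after AP bursting and 597 and 422 in controls (log2 fold 0.19 ± 0.21, SE; adjusted p = 0.659 by limma with the block). Wnt2, which has been described as a CREB-driven ligand of active neurons, stood at 54.3 and 50.0 after AP bursting and 62.2 and 59.1 in controls (log2 fold -0.21 ± 0.32, SE; adjusted p = 0.772). Wnt2b stood at 76.4 and 95.4 after AP bursting and 101 and 115 in controls (adjusted p = 0.545). For both Wnt2 and Wnt2b the 2 groups did not overlap, but neither difference passed over all genes. The same held for Wnt3, Wnt10a and Wnt10b, which were lower after AP bursting, and for Wnt8b and Wnt9b, which were higher. The exact interval of the ratio of reads for Wnt2b was 0.575 to 0.987 in the deep pair and 0.598 to 1.15 in the shallow one. Wnt1, the founding ligand, stood at 5.51 and 25.7 after AP bursting and 22.5 and 28.4 in controls (adjusted p = 0.115), and the low value of 1 library set that difference. Wnt9b stood at 11.8 and 19.7 after AP bursting and 10.5 and 4.38 in controls (adjusted p = 0.165). Wnt3, Wnt5b, Wnt8b, Wnt10b and Wnt11 ranged from 3.94 to 38.3 normalized reads per library, with adjusted p-values of 0.218 to 0.973. Wnt10a and Wnt16 had at most 4 reads in any library. Wnt3a, a ligand that drives hippocampal progenitors in development, had 0 reads in both AP bursting libraries and 1 read in each control, too few for a fold.

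**Figure D2:**
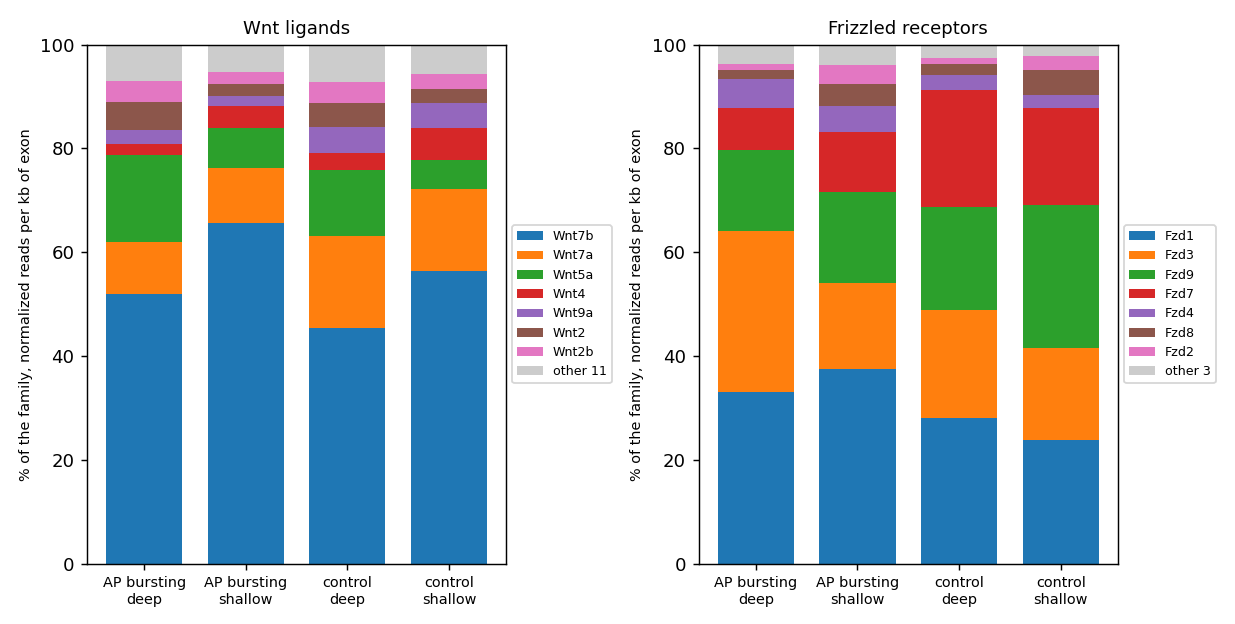
Make-up of the Wnt ligands (left) and the Frizzled receptors (right) in each library, as the percent of the family's summed normalized reads per kilobase of exon. Wnt7b is the largest ligand block in all 4 libraries, and Fzd7 and Wnt7a take smaller shares in the AP bursting libraries than in the controls.

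Among the 10 Frizzled receptors 3 rose and 1 fell with the block, and by level per kilobase Fzd1, Fzd3, Fzd9 and Fzd7 dominated. Fzd4 (ENSMUSG00000049791, chromosome 7), which also serves as the receptor for norrin in retinal vessels, rose. It stood at 128 and 213 normalized reads after AP bursting, against 79.4 and 73.3 in the controls. Both stimulated libraries were above both controls, and they differed from each other more than the controls did. On the log2 scale the change was 1.10 ± 0.27 (SE, limma with the replicate block, adjusted p = 0.00103), and the ratio of reads was 1.61 in the deep pair (exact 95% interval 1.25 to 2.07) and 2.91 in the shallow pair (2.16 to 3.96).

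Fzd5 (ENSMUSG00000045005, chromosome 1), linked to eye and neuronal development, rose mainly in the shallow pair. It stood at 21.3 and 75.7 normalized reads after AP bursting and 13.5 and 21.9 in controls. The deep AP bursting library fell between the 2 controls, and the shallow one lay far above both. The log2 fold was 1.18 ± 0.38 (SE, limma with the replicate block, adjusted p = 0.0206), and the interval of the ratio included 1 in the deep pair (0.837 to 3.04). The call ended when the block fit was scaled to total reads of the resolved genes (log2 fold 1.04, adjusted p = 0.0547). A gene on the other strand, Gm38058, overlaps 17.8% of the exon bases of Fzd5 in GENCODE M21, and reads that do not keep strand cannot be told apart there.

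Fzd1 (ENSMUSG00000044674, chromosome 5), a receptor for several canonical ligands, gave a call that rests on 1 library. It stood at 484 and 978 normalized reads after AP bursting and 477 and 440 in controls. The shallow AP bursting library was high and the other 3 were alike. limma with the replicate block gave a log2 fold of 0.59 ± 0.21 (SE, adjusted p = 0.0363), or 0.02 within the deep and 1.15 within the shallow pair, and without the block and without that library it was 0.08. The call ended when the block fit was scaled to total reads of the resolved genes (0.44, adjusted p = 0.203). It also ended when a mean of at least 10 was required (adjusted p = 0.0732).

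Fzd7 (ENSMUSG00000041075, chromosome 1), a receptor described at hippocampal synapses and in stem cells, fell, and mainly in the deep pair. It stood at 129 and 322 normalized reads after AP bursting and 412 and 375 in controls. Both stimulated libraries were below both controls, the shallow one only slightly. Its log2 fold came to -0.94 ± 0.23 (SE, limma with the replicate block, adjusted p = 0.000769), with -1.67 in the deep pair and -0.22 in the shallow one. The interval of the ratio of reads included 1 in the shallow pair (0.721 to 1.02). Fzd7 made up 8.17% and 11.4% of the summed Frizzled level per kilobase after AP bursting, against 22.4% and 18.8% in controls.

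The other receptors did not pass. Fzd3, which acts in axon guidance, stood at 1380.0 and 1324 normalized reads after AP bursting and 1086 and 1005 in controls. Its groups did not overlap and its log2 folds of 0.35 and 0.40 in the deep and shallow pair were alike, but the change was small (0.37 ± 0.19, SE; adjusted p = 0.201 by limma with the block). Fzd6 stood at 40.1 and 40.9 after AP bursting and 29.2 and 19.7 in controls (adjusted p = 0.207). Fzd9, a receptor enriched in the hippocampus, stood at 125 and 251 after AP bursting and 184 and 278 in controls (adjusted p = 0.429). Fzd9 followed the pair more than the treatment. Fzd2, Fzd8 and Fzd10 were lower in the deep and higher in the shallow pair after AP bursting, and their adjusted p-values were 0.677, 0.984 and 0.808. The co-receptor Lrp6 stood at 623 and 854 after AP bursting and 653 and 832 in controls, a log2 fold of -0.02 ± 0.20 (SE; adjusted p = 0.98). Its relative Lrp5 stood at 105 and 404 after AP bursting and 114 and 283 in controls (adjusted p = 0.712), with a wider gap between the libraries of 1 group than between the groups.

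**Figure D3:**
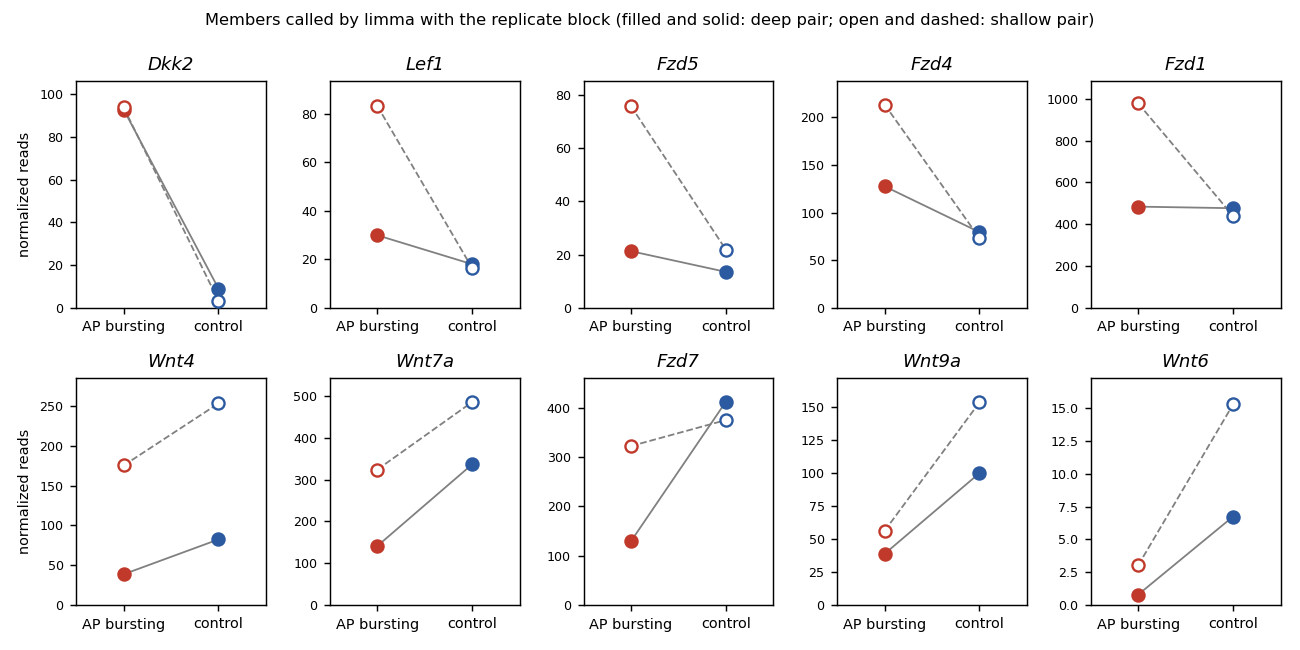
Normalized reads (linear axes from 0) of the 10 members called by limma with the replicate block, AP bursting left and control right in each panel; lines join the libraries of a pair, solid and filled for deep, dashed and open for shallow. The line of Fzd1 is almost flat in the deep pair, and that of Fzd7 in the shallow pair, where its log2 fold was -0.22.

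Of the 4 Sfrp genes, whose products bind ligands outside the cell, 0 passed. Sfrp1 stood at 488 and 501 normalized reads after AP bursting and 437 and 382 in controls (log2 fold 0.28 ± 0.21, SE; adjusted p = 0.488 by limma with the block). Sfrp4 stood at 15.0 and 43.9 after AP bursting and 9.74 and 14.2 in controls (log2 fold 1.07 ± 0.43, SE; adjusted p = 0.0844). Their groups did not overlap, but neither difference passed over all genes. Sfrp2 stood at 70.1 and 147 after AP bursting and 83.2 and 85.3 in controls (adjusted p = 0.659), and Sfrp5 had at most 2 reads in any library.

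Lef1 (ENSMUSG00000027985, chromosome 3), the DNA-binding partner through which beta-catenin acts and itself a known target of the pathway, rose. It was counted at 38 and 55 reads after AP bursting, against 24 and 15 in the controls, or 29.9 and 83.3 normalized reads against 17.99 and 16.4. Both stimulated libraries were above both controls, the shallow one by much more. This amounted to a log2 fold of 1.49 ± 0.37 (SE, limma with the replicate block, adjusted p = 0.00121), with 0.70 in the deep pair and 2.28 in the shallow one. The ratio of reads was 1.66 in the deep pair (exact 95% interval 0.972 to 2.9), which includes 1, and 5.07 in the shallow pair (2.83 to 9.67). In the authors' deposited table the fold was 3.29 with an adjusted p of 1. An antisense gene, Gm43352, overlaps 13.7% of the exon bases of Lef1 in GENCODE M21, so part of the reads could stem from it. Tcf7, the related factor, stood at 16.5 and 36.3 normalized reads after AP bursting and 19.5 and 29.5 in controls (adjusted p = 0.98).

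Axin2, a scaffold of the destruction complex that serves as the usual readout of pathway activity, stood at 243 and 456 normalized reads after AP bursting and 281 and 281 in controls. The controls were equal, and the AP bursting libraries lay on either side of them. On the log2 scale the change was 0.24 ± 0.23 (SE; adjusted p = 0.593 by limma with the replicate block), with -0.21 in the deep pair and 0.69 in the shallow one. The constitutive scaffold Axin1 stood at 616 and 413 after AP bursting and 521 and 564 in controls (adjusted p = 0.842), with the opposite signs in the 2 pairs.

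The signed log2 fold was higher in the shallow pair than in the deep pair for 32 of the 39 members tested, beside 50.9% of all genes. This is not always a larger change, since Fzd7 (-1.67 deep and -0.22 shallow) and Wnt7a (-1.25 and -0.58) fell less in the shallow pair. The median log2 fold of the members was -0.19 within the deep pair and 0.29 within the shallow pair, beside 0.01 and -0.02 over all genes. Of the 39 members, 24 moved the same way in both pairs and 15 in opposite ways, and 63.6% of all genes moved the same way. The exact 95% interval of the ratio of reads lay above 1 in both pairs for 3 members, Dkk2, Fzd4 and Fzd3, and below 1 in both for 4, Wnt4, Wnt6, Wnt7a and Wnt9a. These are 7.69% and 10.3% of the members, beside 13.1% and 12.9% of all genes, so such intervals are not more frequent among the members. The libraries also differed within a group. The median log2 difference of deep minus shallow over the members was -0.80 after AP bursting and -0.18 in controls, beside 0.00 and 0.00 over all genes, and 23 of 39 members (59.0%) were lower in the deep library of both groups, beside 40.2% of all genes. Wnt4 had deep minus shallow differences of -2.16 after AP bursting and -1.61 in controls, and Lrp5 -1.93 after AP bursting and -1.31 in controls.

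**Figure D4:**
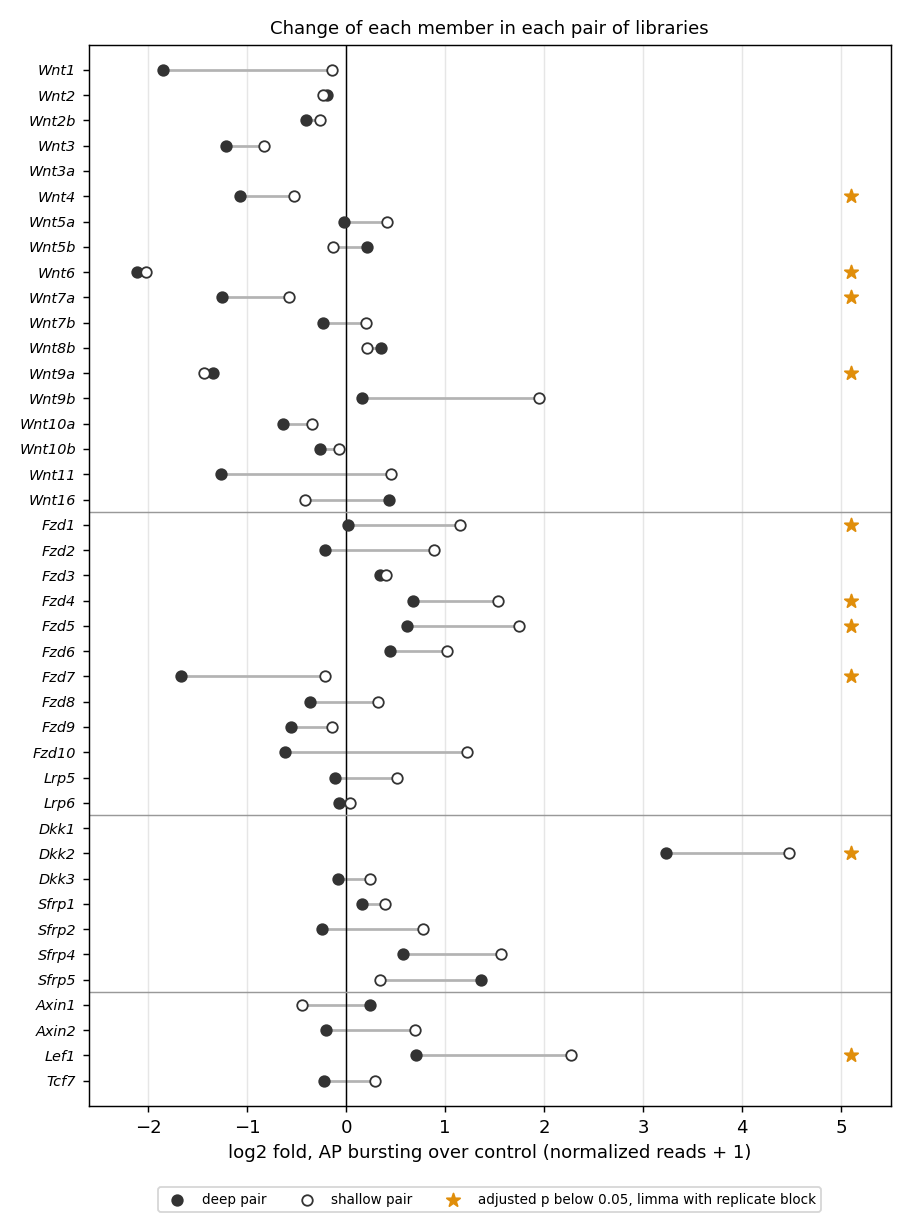
Log2 fold of AP bursting over control for each member tested, in the deep pair (filled) and the shallow pair (open), ordered by role; stars mark an adjusted p below 0.05 in limma with the replicate block. The open point lies to the right of the filled one for 32 of 39 members.

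Markers of other cells give the setting of these values. The summed normalized reads of 7 astrocyte markers were 15631 and 21655 after AP bursting and 14382 and 16217 in the controls, and 0 of the 7 passed with the block. Those of 6 oligodendrocyte lineage markers were 1501 and 2420 after AP bursting and 1527 and 1825 in controls, and those of 6 fibroblast and mural cell markers 1316 and 1636 after AP bursting and 1155 and 1140 in controls, with 0 passing in either list. The 5 endothelial markers found summed to 56.7 and 123 after AP bursting and 88.4 and 109 in controls, and 6 microglial markers to 62.2 and 80.2 after AP bursting and 44.96 and 80.9 in controls, again with 0 passing. Dividing and progenitor cell markers summed to 2184 and 2505 after AP bursting and 1869 and 2802 in controls (0 of 4 passed), and choroid plexus markers to 294 and 93.8 after AP bursting and 287 and 154 in controls (0 of 4 passed). Of 4 Cajal-Retzius markers 1 passed, Reln, which interneurons also express, at 6205 and 14949 after AP bursting and 5480 and 9037 in controls. Cx3cr1 of the microglial list and Kcnj13 of the choroid plexus list had 0 reads in the deep control. The astrocyte, oligodendrocyte lineage, fibroblast, endothelial and Cajal-Retzius sums were highest in the shallow AP bursting library. So were the neuronal marker Rbfox3 and the members Lef1, Fzd1, Fzd4 and Fzd5. The microglial, dividing cell and choroid plexus sums were not. The part of these cells in the results was not tested.

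Of 75 other Wnt pathway genes on the lists, 74 had a row and 71 were tested, of which 8 rose and 2 fell under the replicate block (11.3% and 2.82%), beside the background of 6.87% and 6.10% above. Their median log2 fold was 0.10, beside -0.02 over all genes, and 0 passed in the authors' deposited table. Among receptors and surface regulators 3 of 21 rose and 0 fell. Lgr5, a receptor for R-spondins and a known pathway target, stood at 89.7 and 377 normalized reads after AP bursting and 68.2 and 47.0 in controls (log2 fold 1.68 ± 0.28, SE; adjusted p = 8.51e-08 by limma with the block). Rnf43, a ubiquitin ligase that removes Frizzled receptors and is a known target as well, stood at 19.7 and 177 after AP bursting and 12.7 and 24.1 in controls (adjusted p = 7.31e-05). As with Lef1, the shallow AP bursting library was the highest for both. Wif1, a secreted ligand trap, stood at 139 and 69.6 after AP bursting and 100 and 25.2 in controls (adjusted p = 0.0173).

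Among cytoplasmic transducers 2 of 21 rose and 1 fell. Tnks, a tankyrase that marks Axin for destruction, stood at 6377 and 9141 normalized reads after AP bursting and 4058 and 3508 in controls (log2 fold 1.02 ± 0.16, SE; adjusted p = 6e-09 by limma with the block). Csnk1a1, the kinase that primes beta-catenin for destruction, had a log2 fold of 0.54 in both pairs (adjusted p = 0.00612). Amer1, a scaffold of the destruction complex listed under its older name Fam123b, had a log2 fold of -0.56 ± 0.20 (SE; adjusted p = 0.045). Beta-catenin (Ctnnb1) and Apc were too abundant to be resolved into libraries. Among nuclear partners 1 of 12 rose, the corepressor Tle4 (log2 fold 0.71 ± 0.18, SE; adjusted p = 0.0016 with the block), and 1 fell, the coactivator Pygo1 (-0.71 ± 0.22, SE; adjusted p = 0.0119). Of 8 planar cell polarity genes and of 2 genes for Wnt secretion 0 passed. Of 7 genes known as beta-catenin targets 2 rose, Fosl1 (log2 fold 1.47 ± 0.26, SE; adjusted p = 3.78e-07) and Myc (0.89 ± 0.22, SE; adjusted p = 0.00103). Both can also be induced by neuronal activity through other routes, and by which route they rose here was not tested.

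**Figure D5:**
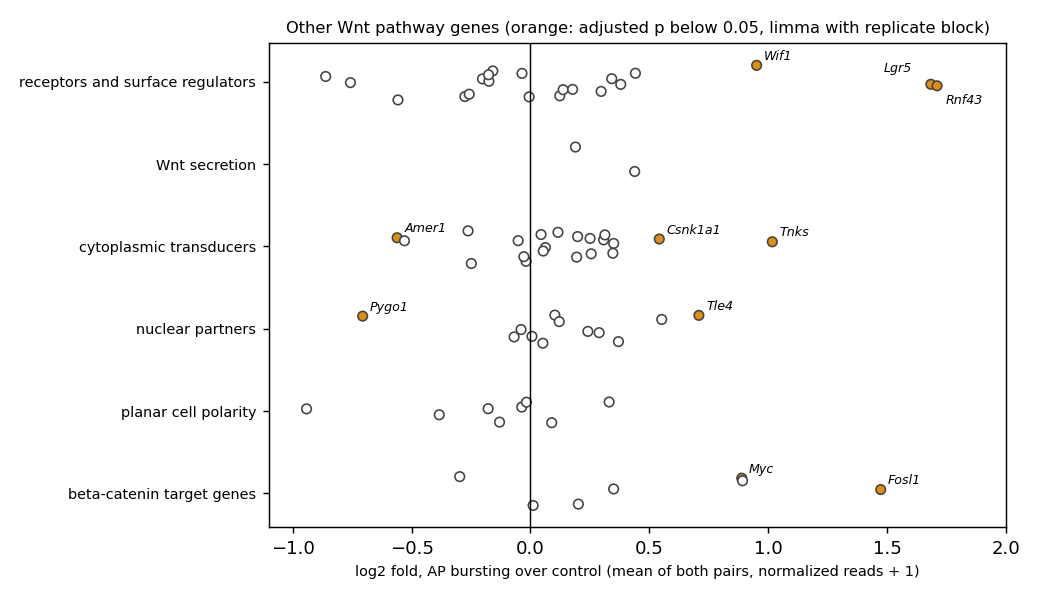
Log2 fold of AP bursting over control, averaged over both pairs, for the 71 other Wnt pathway genes tested, in 6 lists; orange points are named and passed limma with the replicate block. The named genes comprise 8 to the right and 2 to the left of 0.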

How the data were processed

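TopHat 1.2.0, SAMtools 0.1.19, DESeq 1.12.0 and the build mm9 are named in the submitters' processing notes. The counting step and its annotation were not stated. Per the labels' protocols the libraries do not keep strand. Per the file headers, the deposited table holds for each gene the mean signal per group (normalized read counts), their ratio (fold) and the authors' adjusted p-value. The deposited fold was recomputed from the means and differed by at most 6.37e-08.

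Because each mean combines whole reads of 2 libraries, divided by their size factors, the reads were recovered by a search for the whole numbers that return the printed mean, with a tolerance of 1.05 times its rounding. A single pair was found for 99.5% of AP bursting and 98.8% of control values, all members included. Of 2000 randomly moved values, 3 and 2 found a pair, and 100% of simulated pairs came out right. The size factors were 1.27 and 0.661 for the deep and shallow AP bursting libraries and 1.33 and 0.914 for the controls. Values lost to the search are the most abundant ones, and the resolved values held 82.5% of the AP bursting signal and 70.2% of the control signal. Scaling to total reads, an alternative used for the fits, sums only the genes resolved in all 4 libraries.

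The 20226 genes averaging at least 1 normalized read were fitted with limma 3.58.1 (R 4.3.3, variance trend) as log2(normalized reads + 1), without and with the pair as a replicate block. The pairing was decided from the correlation given above, not from calls. On simulated data with this pairing, the block fit called 33 of 34 genes raised 4-fold and 25 of 34 raised 2-fold. It called 3 of 33 raised 1.5-fold, and 3 of 20054 unchanged genes. At folds of 0.25, 0.5 and 0.667 it called 32, 16 and 6 of 33 genes. The fit without the block called 0 genes at every fold. That simulation gave a pair the same offset in either group, and its spread between libraries was a fixed setting not estimated from these data. In the data the median deep minus shallow difference of the members was -0.80 after AP bursting and -0.18 in controls. How the block fit does where the offset differs between the groups, or at a larger spread, was not tested. The 3 of 20054 is thus not its error rate in these data. The edgeR test foreseen for deposited counts was not used, as the table holds means. Exact intervals are Clopper-Pearson at 95% on the raw reads of a pair, and ratio and interval were then scaled by the size factors. P-values speak for 2 libraries per group.

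Levels between genes are compared per kilobase of the union of exons in GENCODE M21 (build GRCm38), not the authors' annotation. Promoter windows are RefSeq's. Every member is named, of other genes those of the pathway lists that passed, and the 6 promoter windows of members called with the block, with a mean of at least 10 and the largest log2 folds. The members and lists were chosen with earlier results of these data known. The genes Sost and Cldn5 were not analysed here.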

Additional observations from a re-analysis of the deposited data

How the results depend on the processing

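The calls depend on the pairing of the libraries. Against 1 member higher and 0 lower in the authors' deposited table, limma without the block gave 0 and 0, limma with the replicate block 5 and 5, and a threshold of 0.1 changed neither of the authors' counts. With the replicate block, scaling to total reads, where the median over all genes was -0.16, gave 3 higher and 5 lower (Fzd5 and Fzd1 lost), a pseudocount of 0.5 gave 5 and 5, no filter 5 and 5, a mean of at least 10 gave 4 and 4 (Fzd1 lost, Wnt6 not tested), and no variance trend 0 and 0. Over all genes the block called 1390 higher and 1234 lower, and 995 and 1930 with total scaling. Without the block every alternative called 0 members, and the smallest adjusted p of a member ranged from 0.301 to 1.

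Total scaling, with or without the block, turned the sign of 4 uncalled members: Wnt5b (-0.11), Wnt16 (-0.11), Dkk3 (-0.071) and Tcf7 (-0.11). In leave-one-out fits without the block, 21 of 39 members kept their sign, Dkk2 at log2 folds of 3.24 to 4.46, Lef1 at 0.77 to 2.21, Fzd4 at 0.73 to 1.47, Fzd5 at 0.29 to 2.08, Fzd1 at 0.08 to 1.09, Fzd7 at -1.60 to -0.29, Wnt7a at -1.51 to -0.32, Wnt9a at -1.70 to -1.08 and Wnt6 at -2.65 to -1.48. The other 18 changed sign: Wnt1 (-2.01 to 0.024), Wnt4 (-1.88 to 0.28), Wnt5a (-0.057 to 0.44), Wnt5b (-0.17 to 0.24), Wnt7b (-0.74 to 0.69), Wnt11 (-1.60 to 0.78), Wnt16 (-0.55 to 0.56), Fzd2 (-0.93 to 1.60), Fzd8 (-1.01 to 0.97), Fzd9 (-0.85 to 0.15), Fzd10 (-0.42 to 1.02), Lrp5 (-0.76 to 1.17), Lrp6 (-0.24 to 0.21), Dkk3 (-0.0090 to 0.16), Sfrp2 (-0.26 to 0.79), Axin1 (-0.39 to 0.18), Axin2 (-0.21 to 0.69) and Tcf7 (-0.51 to 0.58). For 8 of these a second omission also turned the sign: Wnt4 (0.0028), Wnt7b (0.48), Wnt16 (-0.12), Fzd2 (-0.38), Fzd8 (0.63), Lrp5 (-0.45), Lrp6 (0.16) and Tcf7 (-0.26). The lone library of a group is there assumed to vary like the other group. Members with few reads, such as Wnt6, Wnt10a, Wnt16 and Sfrp5, are limited by depth.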

Other observations

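Several members are neighbours in the genome, by the gene order of RefSeq on GRCm38. Wnt6 and Wnt10a lie next to each other on chromosome 1, and both were lower in each AP bursting library than in either control. Wnt6 stood at 0.787 and 3.03 normalized reads after AP bursting against 6.74 and 15.3 in controls. Wnt10a stood at 1.57 and 1.51 against 2.998 and 2.19, which is 2 and 1 reads against 4 and 2. The exact 95% interval of its ratio of reads included 1 in both pairs (0.0475 to 3.66 and 0.0117 to 13.3). Wnt6 passed limma with the replicate block and Wnt10a had an adjusted p of 0.779. Wnt9a and Wnt3a are neighbours on chromosome 11, where Wnt9a fell and Wnt3a was at 0 or 1 read. Wnt9b and Wnt3, also neighbours on chromosome 11, differed in sign, with log2 folds of 0.16 and 1.94 in the deep and shallow pair for Wnt9b and -1.22 and -0.83 for Wnt3, and neither passed. Lef1 and Dkk2, both higher with AP bursting, lie on chromosome 3 with 4 coding genes between them. Whether neighbours change together was not tested.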
